A study of Mus musculus with 23 samples.

Results

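The comparison described here set the livers of 5 mice given furan at 2 mg/kg against the livers of 5 control mice. The members were taken from the treatment labels of the samples, which gave 10 of the 23 arrays of the study. The study dosed female mice of the hybrid B6C3F1 strain with furan in corn oil by gavage on 21 days (3 weeks), at 1, 2, 4 or 8 mg/kg body weight. Control mice received corn oil alone by the same route, and all livers were taken 4 hours after the last dose. The mice were bought at 5 to 6 weeks of age, were acclimatised for at least 7 days and were housed 5 to a cage, and each array holds the liver RNA of 1 animal. The title of the series names cell death and regenerative proliferation as its subject, and this comparison measures the liver response at the second of the 4 doses.

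Furan is oxidised in hepatocytes, mainly by Cyp2e1, to a reactive dialdehyde that binds glutathione and proteins. Damaged DNA and protein activate separate programmes in such cells: p53 switches on genes of cell cycle arrest and apoptosis, the heat shock factor switches on chaperones, NRF2 switches on glutathione enzymes, and the unfolded protein response switches on chaperones of the endoplasmic reticulum. The liver is also the main site of cholesterol synthesis and of the acute phase response, in which hepatocytes secrete proteins such as serum amyloid A during inflammation elsewhere in the body.

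Each array compared liver RNA labelled with Cy5 with a common mouse reference RNA labelled with Cy3. Levels below are log2 ratios of liver to reference minus the mean of the 5 controls, so that 0 is the control mean, and they are listed in the order of replicates 1 to 5. Differences are group means at 2 mg/kg minus control ± SE on the log2 scale. The number of probes with a Cy5 signal well above background ran from 22928 to 30120 over the 10 arrays, and none was saturated (0 spots). Replicates are separate animals, so p-values measure the spread between animals. That spread was estimated over all 23 arrays of the study and not over the 10 arrays alone.

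Several of the 10 arrays stood apart in transcripts of other cells. Their values are printed for some genes that they may touch, and other genes are given as group differences only. Replicates 1 and 5 at 2 mg/kg carried transcripts of pancreatic acinar cells, with mean levels over the measured markers of 3.48 and 3.26 against at most 0.39 on the other 8 arrays, and some adipose transcripts. Outside this comparison, replicate 1 at 4 mg/kg and replicate 5 at 8 mg/kg carried acinar transcripts too, with means of 3.70 and 2.51. Fits without the arrays that carried pancreatic transcripts left out all 4 of these arrays. Replicate 4 at 2 mg/kg carried neutrophil transcripts, with a mean of 1.96 against 0.70 in replicate 5 and at most 0.36 elsewhere. The 10 arrays lay on 5 slides, and 4 of these held both groups. Slide 3 held control replicate 2 and replicate 5 at 2 mg/kg, and both had high hepatocyte transcripts, with means of 0.60 and 1.00. The arrays of other doses on slide 3 were also high, at 0.86 (1 mg/kg replicate 1) and 0.73 (8 mg/kg replicate 3). No array of another slide was above 0.11, so the high level went with the slide. All 15 hepatocyte markers were well above background on each of the 10 arrays, so the tissue label and its defining markers match. In whole tissue, fewer cells of a type and less RNA per cell cannot be told apart.

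Few genes differed at 2 mg/kg. Of 19899 genes tested, 2 (0.0101%) passed an adjusted p of 0.05 in limma: Fam13b was higher and the transcript XM_001481075, which the gene table used here did not name, was lower. At an unadjusted p under 0.05, 1727 genes (8.68%) differed, 873 of them higher (4.39%) and 854 lower (4.29%). The groups of 5 did not overlap for 314 genes (1.58%), 169 of which lay higher at 2 mg/kg and 145 lower (0.849% and 0.729%). The median difference over all genes was -0.009, and 553 genes differed by more than 1.5-fold between group means. At 1 mg/kg, with 4 arrays, 0 genes passed the threshold and 696 (3.5%) had an unadjusted p under 0.05.

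Fam13b, which encodes a protein with a GTPase-activating domain, rose 1.52-fold (0.60 ± 0.098, adjusted p = 0.0477, n = 5 and 5). It stood at -0.23, -0.016, 0.054, 0.27 and -0.080 on the control arrays, and 0.67, 0.75, 0.57, 0.41 and 0.61 on the arrays of treated animals. The lowest treated animal lay above the highest control, and on the 4 slides that held both groups the difference was 0.36 to 0.73. XM_001481075 fell by 0.44 ± 0.070 on the log2 scale (adjusted p = 0.0477). It stood at 0.012, -0.0025, 0.015, -0.055 and 0.030 on the control arrays, and -0.48, -0.32, -0.41, -0.38 and -0.61 on the arrays of treated animals. The controls were tightly grouped, and all 5 treated animals lay below them. Both calls were close to the threshold: neither was made with slide as a fixed block, without the arrays that carried pancreatic transcripts or with the authors' deposited ratios, for which 0 genes passed and 2264, 1305 and 1185 genes had an unadjusted p under 0.05. Of the fits with 1 animal left out, Fam13b passed without control replicate 4 or without treated replicate 4 (adjusted p = 0.0208 and 0.0328) and XM_001481075 without treated replicate 4 (0.0448). Without any 1 of the other 8 animals the adjusted p of Fam13b was 0.0897 to 0.172, while its difference stayed between 0.55 and 0.67 over all 10. With slide as a random block 7 genes passed: these 2 together with Aen, Sybu, Tomm40l, Snhg1 and the unnamed transcript XM_001472683.

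The 4 named genes of that set missed the threshold in the fit without slide. The groups did not overlap for any of them, which adds no support because they were picked for small p-values in the same arrays. Aen, an exonuclease induced by p53 that promotes apoptosis, stood 0.49 ± 0.086 above control (1.40-fold, adjusted p = 0.0834). Its levels were 0.021, -0.014, -0.11, 0.10 and -0.0045 on the control arrays, and 0.46, 0.61, 0.42, 0.45 and 0.50 on the arrays of treated animals. The treated animals spanned less than 0.2 log2 units, and the values within the 4 slides were 0.42 to 0.56; a second probe of Aen gave 0.46 ± 0.084. Sybu, which encodes syntabulin, a linker of vesicles to the kinesin motor, was 3.46-fold above control (1.79 ± 0.32, adjusted p = 0.0834). It stood at 0.90, -0.42, 0.011, 0.094 and -0.59 on the control arrays, and 1.48, 1.88, 1.39, 2.49 and 1.71 on the arrays of treated animals. Sybu was dim, and 3 of the 5 control arrays were well above background against all 5 treated ones; its difference was 0.98 with median signals, 0.87 with normexp and 1.01 with the authors' deposited ratios (adjusted p = 0.368, 0.189 and 0.237 in limma). Tomm40l, a relative of the import channel of the outer mitochondrial membrane, differed by 0.72 ± 0.13 (adjusted p = 0.11), with treated animals between 0.54 and 0.86 and controls between -0.17 and 0.11. Snhg1, a non-coding host gene of small nucleolar RNAs, differed by -0.56 ± 0.11 (adjusted p = 0.148), with treated animals between -0.82 and -0.34 and controls between -0.18 and 0.17. XM_001472683 was well above background on 4 of 5 control arrays and on 0 treated arrays, at least 1.74-fold lower, with an adjusted p of 0.148. With median signals, normexp and the authors' deposited ratios the fitted difference of XM_001472683 was -0.38, -0.27 and -0.37, smaller than that bound.

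**Figure D1:**
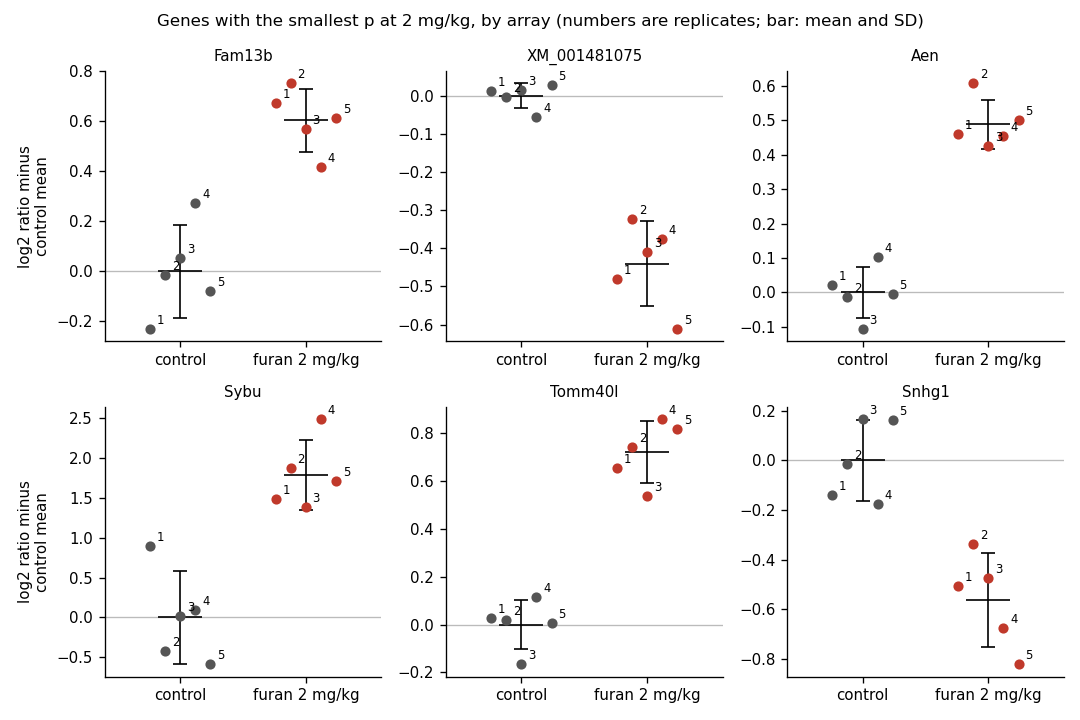
Levels of 6 genes by array, as log2 ratio to the reference minus the control mean (vertical axis), for 5 control animals and 5 animals at 2 mg/kg; points are arrays numbered by replicate, and bars are the mean and SD. In each panel the groups do not overlap; Fam13b and XM_001481075 passed an adjusted p of 0.05, and the other 4 had adjusted p-values from 0.0834 to 0.148.

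The genes next in rank differed by less than 1 log2 unit and had adjusted p-values of at least 0.278. Above control stood the phosphatase Ppm1l (0.47 ± 0.11), the aminopeptidase Dnpep (0.27 ± 0.063), the sorting nexin Snx7 (0.44 ± 0.10) and Ctsc, a lysosomal dipeptidase that activates granule proteases (0.55 ± 0.13). Below control stood Fzd8, a Wnt receptor (-0.57 ± 0.13), Smad9, a mediator of bone morphogenetic protein signals (-0.84 ± 0.20), the lysosomal mannosidase Man2b1 (-0.35 ± 0.081), the phosphatase Ptp4a3 (-0.57 ± 0.14), the ciliary protein gene Evc (-0.53 ± 0.13) and Wfdc3 (-0.63 ± 0.16), whose probe was well above background on only 2 of the 5 arrays of each group. Another 5 genes of this rank, 4930581F22Rik, Fahd2a, Tlcd1, Cnppd1 and Exd1, had differences from -0.61 to -0.29. Groups did not overlap for these genes, apart from Ppm1l and Cnppd1, while 1.58% of all genes had groups that did not overlap. These genes were picked for small p-values in the same arrays, so their lack of overlap adds no support. Cstf3, an RNA cleavage factor, belonged to this rank by its brightest probe (0.42 ± 0.10), but a second probe, well above background on all 10 arrays, lay the other way (-0.27 ± 0.10), so the gene has no settled direction. Bbs10, a chaperonin-like protein of the primary cilium that was named whatever its value, differed by -0.60 ± 0.16 without overlap.

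Genes that p53 activates stood mostly above control. Of 29 members, 25 were measured and 0 passed the adjusted threshold; 9 were higher and 2 lower at an unadjusted p under 0.05, which is 36% and 8% of the measured members against 4.39% and 4.29% of all genes. Their median difference was 0.26 against -0.009 for all genes, and 21 of the 25 were above 0. Without the arrays that carried pancreatic transcripts 8 members were higher by that rule, and without these and the array with neutrophil transcripts, which left treated replicates 2 and 3, 7 were, with a median of 0.21. The median was smaller with the authors' deposited ratios, at 0.16 with 4 members higher.

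Cdkn1a, the cell cycle inhibitor p21, stood above control (0.58 ± 0.16, adjusted p = 0.307). Its levels were 0.59, 0.095, 0.10, -0.61 and -0.18 on the control arrays, and 0.52, 0.73, 0.57, 0.82 and 0.26 on the arrays of treated animals. Control replicate 1 overlapped the treated animals, the lowest of which was replicate 5. Gdf15, a secreted stress factor, differed by 0.84 ± 0.23 and stood at 0.083, 0.49, -0.21, -0.39 and 0.022 on the control arrays, and 1.19, 1.02, 0.68, 1.41 and -0.076 on the arrays of treated animals; replicate 5 lay among the controls. Tnfrsf10b, a death receptor, differed by 0.79 ± 0.20 and stood at 0.73, 0.024, -0.64, -0.27 and 0.16 on the control arrays, and 1.21, 0.64, 0.55, 0.61 and 0.95 on the arrays of treated animals. For it too the groups overlapped, through control replicate 1. Members with smaller differences at an unadjusted p under 0.05 were the RNA-binding protein gene Zmat3 (0.38 ± 0.14), the death receptor Fas (0.38 ± 0.13), the cyclin Ccng1 (0.35 ± 0.12), the autophagy regulator Trp53inp1 (0.27 ± 0.11) and Bax, which opens the outer mitochondrial membrane (0.26 ± 0.11). The lower members were the desmosomal protein gene Perp (-0.15 ± 0.068) and the damage sensor Xpc (-0.18 ± 0.078). Mdm2, the ubiquitin ligase that limits p53, differed by 0.10 ± 0.083 and Phlda3, an inhibitor of Akt, by 0.14 ± 0.11, neither larger than the spread between animals.

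The promoters of Aen and Cdkn1a are shown because Aen had the smallest p-value of the p53 list and Cdkn1a is its cell cycle inhibitor; neither passed the adjusted threshold. They are the 250 bases before the transcription start, read 5′ to 3′ on the gene's strand, from RefSeq annotation of GRCm38.p6; capitals mark matches to the p53 half-site, searched by its consensus on both strands. Aen and Cdkn1a each have 2 annotated starts, and 1 is shown.
Aen (chr7:78895808-78896057, plus strand): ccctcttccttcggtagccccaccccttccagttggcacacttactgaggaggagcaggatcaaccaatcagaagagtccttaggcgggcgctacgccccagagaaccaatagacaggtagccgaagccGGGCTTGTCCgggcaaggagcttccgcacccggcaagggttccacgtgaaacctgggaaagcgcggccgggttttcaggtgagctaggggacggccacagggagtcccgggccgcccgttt
Cdkn1a (chr17:29090729-29090978, plus strand): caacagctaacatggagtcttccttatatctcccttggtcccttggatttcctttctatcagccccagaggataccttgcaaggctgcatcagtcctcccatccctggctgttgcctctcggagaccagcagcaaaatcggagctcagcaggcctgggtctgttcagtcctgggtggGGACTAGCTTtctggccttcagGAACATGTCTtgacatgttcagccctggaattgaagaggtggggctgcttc
Aen held 1 half-site, starting 121 bases before its start, and Cdkn1a held 2, starting 73 and 51 bases before its start. Windows of 300 bases, reaching 50 bases past the start, were found for 19 of the 25 measured members, and 9 of these genes (47.4%) held a half-site in at least 1 window, against 9.55% of 27025 genes. In the window of the start not shown, Aen held 1 half-site and Cdkn1a held 0. A match is a description of letters, and binding was not measured.

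Cholesterol synthesis genes also lay above control. All 26 members were measured, 0 passed the adjusted threshold, and 10 were higher and 0 lower at an unadjusted p under 0.05 (38.5% higher against 4.39% of all genes). The median difference was 0.26, and 24 of 26 were above 0. Sqle, the squalene epoxidase, was 1.76-fold above control (0.82 ± 0.19, adjusted p = 0.278) and stood at 0.12, 0.32, 0.17, -0.26 and -0.35 on the control arrays, and 0.39, 0.83, 0.38, 1.33 and 1.15 on the arrays of treated animals. Its groups did not overlap, with replicates 4 and 5 the highest. Hmgcs1, which makes the precursor HMG-CoA, differed by 0.81 ± 0.21 and stood at -0.25, 0.39, 0.52, -0.33 and -0.33 on the control arrays, and 0.77, 1.09, 0.65, 1.15 and 0.37 on the arrays of treated animals; treated replicate 5 lay below control replicates 2 and 3. Cyp51, the lanosterol demethylase, differed by 0.67 ± 0.17 without overlap, with treated animals between 0.45 and 0.98 and controls between -0.17 and 0.34.

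Other members past an unadjusted p of 0.05 included the mevalonate pathway genes Mvk (0.33 ± 0.15), Mvd (0.46 ± 0.21) and Idi1 (0.51 ± 0.17), the later enzyme Msmo1 (0.38 ± 0.17) and the sterol carrier Stard4 (0.43 ± 0.18). A second probe gave 0.14 ± 0.16 for Mvk and 0.25 ± 0.19 for Stard4. Stard4 stood at 1.16 in treated replicate 5 and at most 0.29 in the other treated animals. Acat2, which makes the acetoacetyl-CoA precursor, was lowest (-0.047 ± 0.17). The mean over the list was -0.16, 0.30, 0.12, -0.16 and -0.097 on the control arrays, and 0.059, 0.46, 0.14, 0.45 and 0.37 on the arrays of treated animals. Treated replicates 1 and 3 lay below control replicate 2, so the means of the 2 groups overlapped. Control replicate 2 and treated replicate 5 lay on slide 3, whose arrays had high hepatocyte transcripts. Without that slide 8 members were higher, with a median of 0.33, and without the arrays with transcripts of other cells 6 were, with a median of 0.23. Leaving out 1 animal at a time gave 5 to 11 higher members, with 5 without control replicate 1. Without treated replicate 2 it was 6.

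The Hmgcs1 promoter is shown because, of the 2 members found with a sterol regulatory element, it had the larger difference. The element is the letters CACCCCAC on either strand, in capitals; the other member with it was Acat2, at the lower end of the list.
Hmgcs1 (chr13:119690101-119690350, plus strand): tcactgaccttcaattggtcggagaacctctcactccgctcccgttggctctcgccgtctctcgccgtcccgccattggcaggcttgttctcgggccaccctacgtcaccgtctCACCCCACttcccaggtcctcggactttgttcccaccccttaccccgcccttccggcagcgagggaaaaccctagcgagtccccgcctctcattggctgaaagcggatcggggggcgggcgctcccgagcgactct
The element started 136 bases before the start site. In the 300-base windows, 2 of the 18 members with a window held it (11.1% against 3.3% of 27025 genes), and the CCAAT box, which does not overlap it in letters, was in 17 of the 18 (94.4% against 41.1%).

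Heat shock genes were another group above control. Of 17 members, 16 were measured, 0 passed the adjusted threshold, and 7 were higher and 0 lower at an unadjusted p under 0.05 (43.8% higher against 4.39% of all genes), with a median of 0.20. Hsp90aa1, the inducible cytosolic Hsp90, stood above control (0.59 ± 0.16, adjusted p = 0.307). It stood at 0.18, 0.13, -0.067, 0.15 and -0.40 on the control arrays, and 0.50, 0.46, 0.24, 0.91 and 0.82 on the arrays of treated animals. Its groups did not overlap, nor did those of Hsp90ab1, the constitutive form (0.24 ± 0.068, adjusted p = 0.322). Hspa8, the constitutive Hsp70, differed by 0.39 ± 0.11, Chordc1, a co-chaperone of Hsp90, by 0.39 ± 0.094, Dnaja1, a co-chaperone of Hsp70, by 0.34 ± 0.13, and the Hsp110 genes Hspa4l and Hsph1 by 0.32 ± 0.13 and 0.30 ± 0.12. Other probes gave 0.16 ± 0.21 and 0.35 ± 0.13 for Hspa8, 0.18 ± 0.20 for Dnaja1 and 0.41 ± 0.10 for Hsph1. Hspb1, a small heat shock protein, differed by 0.024 ± 0.15, and Cryab, another small heat shock protein, by -0.17 ± 0.20, both smaller than their SE. Without the arrays that carried transcripts of other cells 5 members were higher by the same rule, and the median was 0.15.

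The Hsph1 promoter is shown for its heat shock element, written as GAANNTTC or TTCNNGAA on either strand. Hsph1 has 2 annotated starts, and 1 is shown.
Hsph1 (chr5:149636337-149636586, minus strand): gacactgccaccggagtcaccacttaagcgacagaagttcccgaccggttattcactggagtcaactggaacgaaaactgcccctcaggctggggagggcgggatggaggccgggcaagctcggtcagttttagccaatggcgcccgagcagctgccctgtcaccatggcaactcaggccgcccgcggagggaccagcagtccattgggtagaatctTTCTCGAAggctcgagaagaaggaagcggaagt
This match started 33 bases before the start site. An element was found in the 300-base windows of 8 of 11 members with a window (72.7% against 17% of 27025 genes), and Chordc1 held 5 matches around its start. Of these 8, Hspd1 and Hspe1 have overlapping windows on opposite strands that hold the same 3 matches, so 1 stretch was counted for both.

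**Figure D2:**
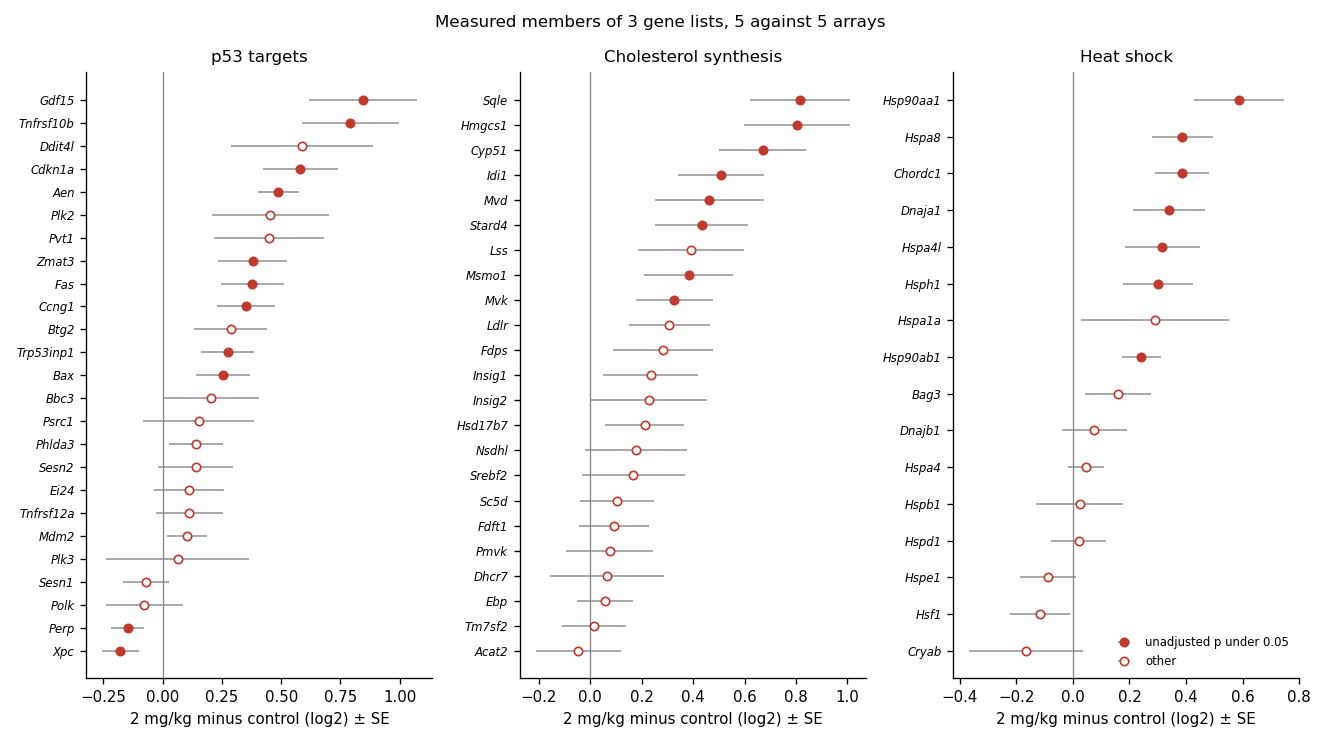
Difference at 2 mg/kg minus control ± SE (horizontal axis, log2) for measured members of the p53 (25 drawn), cholesterol synthesis (23 drawn of 26) and heat shock (16 drawn) lists, from 5 against 5 arrays. The SE is from the fit on all 23 arrays. Filled points have an unadjusted p under 0.05. Of those drawn, 21, 22 and 13 lie above 0, and none passed the adjusted threshold.

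Genes of the unfolded protein and integrated stress responses lay on both sides of control. Of 25 members, all measured, 0 passed the adjusted threshold, and 6 were higher and 2 lower at an unadjusted p under 0.05 (24% and 8%, against 4.39% and 4.29% of all genes). The median was 0.16. The higher members were chaperones of the endoplasmic reticulum, Hspa5 (0.53 ± 0.20), Hyou1 (0.54 ± 0.21), Hsp90b1 (0.33 ± 0.11) and Creld2 (0.69 ± 0.29), with asparagine synthetase Asns (0.64 ± 0.27) and the stress protein gene Nupr1 (0.38 ± 0.17). Creld2 stood at 0.080, 0.26, 0.025, 0.078 and -0.45 on the control arrays, and 0.40, 0.51, -0.028, 0.43 and 2.14 on the arrays of treated animals, so replicate 5 alone was far above the controls. Replicate 1, whose acinar transcripts were as high as those of replicate 5, stood at 0.40. Fgf21, a hepatokine of the stress response, differed by 0.45 ± 0.44 and was highest in treated replicate 2, at 1.46. The lower members were Trib3, a pseudokinase that restrains Akt (-0.65 ± 0.24), and Chac1, which degrades glutathione (-0.67 ± 0.29). Without the arrays that carried pancreatic transcripts 2 members were higher, and 0 when replicate 4 was left out as well. Leaving out control replicate 5 alone gave 2, and treated replicate 4 alone 3. Acinar cells are rich in endoplasmic reticulum, and the part of their transcripts in these values was not tested.

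Acute phase genes were high in 2 of the 5 treated animals. Of 25 members, 5 were higher and 0 lower at an unadjusted p under 0.05 (20% higher, against 4.39% of all genes), 0 passed the adjusted threshold, and the median was 0.14, with 24 members above 0. Saa1, serum amyloid A, differed by 1.75 ± 0.64 (3.35-fold, adjusted p = 0.454) and stood at -0.65, 0.59, 0.23, 0.45 and -0.62 on the control arrays, and -0.038, 0.41, 0.11, 4.27 and 3.98 on the arrays of treated animals. Replicates 4 and 5 lay far above all other animals, and replicates 1 to 3 lay among the controls. Lcn2, the iron-siderophore carrier lipocalin 2, was also highest in replicates 4 and 5, at -0.058, 0.24, 0.51, 5.17 and 3.00 in the treated animals and between -0.44 and 0.21 in controls (1.77 ± 0.66). At the lower end of the list stood Hamp, the iron hormone hepcidin (-0.16 ± 0.35). Cp, which encodes ceruloplasmin, differed by 0.54 ± 0.23, with 1.74 in replicate 4 and at most 0.51 in the other treated animals. Replicates 4 and 5 also had the highest neutrophil transcript means (1.96 and 0.70), but Lcn2 is a member of that list too, so the 2 lists are not separate. The part of neutrophil transcripts in these values was not tested. Of the list, 3 members were higher without replicate 4 and 0 without the arrays with transcripts of other cells, where the median was -0.033; without treated replicate 5 alone it was -0.048.

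Mt1 and Mt2, the metallothioneins that bind zinc and copper, had the same 2 highest animals. Mt1 stood at -0.079, -0.36, 0.52, -0.22 and 0.13 on the control arrays, and 0.78, 0.39, 0.50, 2.59 and 1.98 on the arrays of treated animals (1.25 ± 0.42, 2.38-fold, adjusted p = 0.415). Mt2 stood at -0.17, -0.44, 0.80, -0.14 and -0.055 on the control arrays, and 1.45, -0.12, 0.73, 2.97 and 2.36 on the arrays of treated animals (1.48 ± 0.53, adjusted p = 0.443). Replicate 1, which carried acinar transcripts but had an acute phase mean of -0.34, was above all controls for both genes. Treated replicates 2 and 3 overlapped the controls in Mt1 and in Mt2, lying below control replicate 3.

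**Figure D3:**
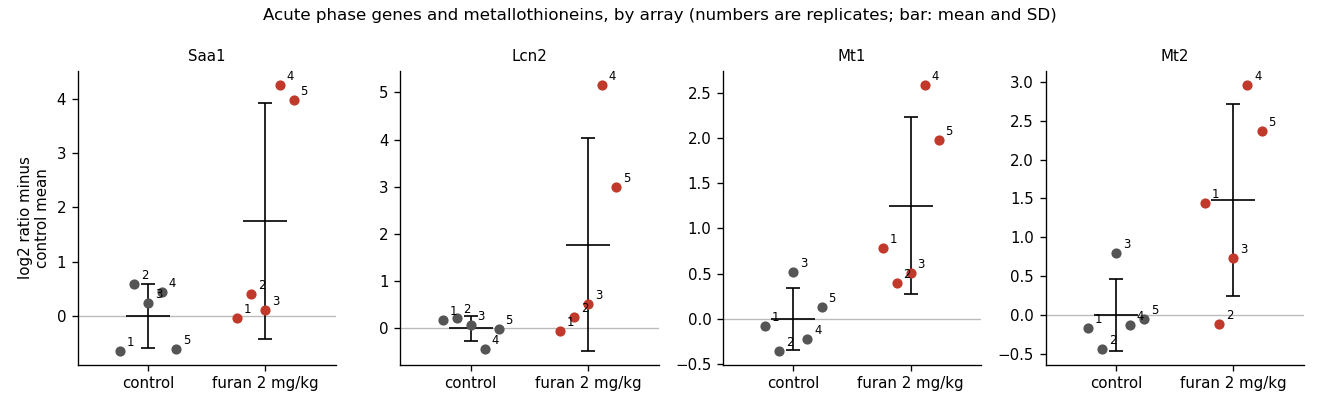
Levels of Saa1, Lcn2, Mt1 and Mt2 by array, as log2 ratio to the reference minus the control mean, for 5 control animals and 5 animals at 2 mg/kg; points are arrays numbered by replicate, and bars are the mean and SD. Replicates 4 and 5 at 2 mg/kg are the highest in each panel, from 1.98 to 5.17, and the controls lie between -0.65 and 0.80.

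The metallothionein promoters are shown with metal response elements in capitals, written as TGCACNC or TGCGCNC on either strand.
Mt1 (chr8:94178839-94179088, plus strand): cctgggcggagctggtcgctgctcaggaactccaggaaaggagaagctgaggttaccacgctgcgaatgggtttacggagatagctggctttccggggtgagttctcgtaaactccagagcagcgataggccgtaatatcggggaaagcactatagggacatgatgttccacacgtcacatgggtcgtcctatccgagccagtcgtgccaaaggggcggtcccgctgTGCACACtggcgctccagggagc
Mt2 (chr8:94172368-94172617, plus strand): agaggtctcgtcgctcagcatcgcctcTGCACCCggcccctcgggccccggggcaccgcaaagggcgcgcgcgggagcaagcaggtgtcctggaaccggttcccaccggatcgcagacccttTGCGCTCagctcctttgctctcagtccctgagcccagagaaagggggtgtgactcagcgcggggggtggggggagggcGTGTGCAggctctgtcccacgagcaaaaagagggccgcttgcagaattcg
In this stretch Mt1 held 1 match, starting 23 bases before its start, and Mt2 held 3, starting 223, 128 and 50 bases before its start. The 300-base windows, which reach 50 bases past the start, held 3 matches for Mt1 and 4 for Mt2. At least 1 window with a match was found for 28.2% of 27025 genes.

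Glutathione and NRF2 genes lay near control. Of 43 members, 42 were measured, 0 passed the adjusted threshold, and 1 was higher and 5 were lower at an unadjusted p under 0.05 (2.38% and 11.9%, against 4.39% and 4.29% of all genes). The median was -0.0057. The lower members were 4 glutathione transferases, Gsta4 (-0.30 ± 0.086), Gstm2 (-0.40 ± 0.17), Gstm4 (-0.36 ± 0.13) and Gstt2 (-0.39 ± 0.12), and Me1, the malic enzyme that supplies NADPH (-0.41 ± 0.14). Of these, Gsta4 had groups that did not overlap, with 0.13, -0.097, -0.11, 0.028 and 0.048 on the control arrays and -0.23, -0.36, -0.12, -0.45 and -0.33 on the arrays of treated animals. The higher member was thioredoxin reductase Txnrd1 (0.17 ± 0.076). Of the defining NRF2 targets, Nqo1 differed by 0.22 ± 0.16, Gclc by -0.10 ± 0.15, Hmox1 by 0.16 ± 0.25 and Gsta1 by -0.54 ± 0.59, and the growth inhibitor Osgin1, at the upper end of the list, by 0.50 ± 0.30; none had an unadjusted p under 0.05. Without treated replicate 5 the lower members numbered 3. Other probes gave -0.34 ± 0.18 and -0.38 ± 0.17 for Gstm2, -0.18 ± 0.15 for Gstm4, and -0.33 ± 0.15 and -0.40 ± 0.14 for Me1. Related transferase genes share sequence, and probes may read more than 1 of them.

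Among 20 measured genes of furan oxidation and conjugate processing, 0 were higher and 1 was lower at an unadjusted p under 0.05 (5% lower, against 4.29% of all genes). That was Acy1, which deacetylates mercapturic acids (-0.33 ± 0.12). Cyp2e1, which oxidises furan, stood at -0.29, 0.78, -0.094, -0.16 and -0.23 on the control arrays, and -0.56, -0.27, -0.21, -0.33 and 0.76 on the arrays of treated animals (-0.12 ± 0.27). The highest animals were control replicate 2 and treated replicate 5, both on slide 3. Ephx1, the microsomal epoxide hydrolase, differed by -0.0037 ± 0.12, and its direction changed with the processing. Ggt5, a glutamyl transferase, differed by 0.28 ± 0.41.

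Cell death, cell cycle and DNA repair lists each held at most 3 members in a direction past an unadjusted p of 0.05, which 4.39% of all genes passed as higher and 4.29% as lower. Of 30 cell death mediators, 3 were higher (Bax, Fas and Tnfrsf10b, which the p53 list also holds) and 2 lower (10% and 6.67%), among them the caspase Casp6 (-0.39 ± 0.17). Among 31 cell cycle genes, 0 were higher and 1 was lower, the thymidine kinase Tk1 (-0.22 ± 0.097); Mki67, the proliferation marker, differed by 0.37 ± 0.25, the cyclin Ccnd1 by 0.31 ± 0.27 and the centromere motor Cenpe by 0.60 ± 0.30. The cell cycle mean was highest in replicate 4, at 0.67, against at most 0.32 in the other treated animals. In DNA repair, 3 of 23 genes were higher and 3 lower (13% each way). Among the higher were the damage-marking histone gene H2ax (0.41 ± 0.17) and the exonuclease Exo1 (adjusted p = 0.472). Exo1 was well above background on 0 control and 3 treated arrays, so the size of its difference is not settled. The lower were the repair endonuclease Ercc5 (-0.33 ± 0.082), whose groups did not overlap, the scaffold Xrcc1 (-0.22 ± 0.090) and Xpc. The checkpoint kinase Chek1 differed by -0.52 ± 0.39, by a dim probe well above background on 2 control and 3 treated arrays, and was not past that p. Immediate early genes held 0 of 16 in either direction; the transcription factors Jun (0.26 ± 0.18), Junb (-0.30 ± 0.27), Myc (0.53 ± 0.40) and Atf3 (0.27 ± 0.19) did not have an unadjusted p under 0.05.

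Oncofetal and tumour markers were higher for 4 of 16 and lower for 0 at an unadjusted p under 0.05 (25% higher, against 4.39% of all genes), and 0 passed the adjusted threshold. Ly6d, a surface antigen of the Ly6 family, stood at -0.052, -0.045, 0.10, 0.018 and -0.024 on the control arrays, and 0.22, 0.82, 0.53, 2.74 and 0.63 on the arrays of treated animals (0.99 ± 0.37, adjusted p = 0.462). All 5 treated animals lay above the controls, and replicate 4 was far above the rest. The other 3 were Golm1, a Golgi membrane protein (0.39 ± 0.16), the keratin Krt18 (0.33 ± 0.16) and the tubulin Tubb6 (0.25 ± 0.12). Afp, alpha-fetoprotein, differed by 0.39 ± 0.28, the tubulin Tubb2a by 0.54 ± 0.30 and the imprinted RNA H19 by -0.46 ± 0.35. Without replicate 4 the count was 0, and it was 2 without control replicate 2, 3 or 5 or treated replicate 5. Replicate 4 had the highest list mean, 0.77, and also the neutrophil transcripts, whose part in these values was not tested.

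Inflammatory and interferon genes gave 1 higher member each at an unadjusted p under 0.05 (4% and 3.85%, against 4.39% of all genes), the same gene, the chemokine Cxcl10, which stood at -0.22, -0.033, 0.032, 0.36 and -0.14 on the control arrays, and 0.47, 0.58, 0.63, 0.025 and 0.31 on the arrays of treated animals (0.40 ± 0.15, adjusted p = 0.454). Replicate 4, the animal with neutrophil transcripts, was the lowest of the 5. Usp18, which restrains interferon signalling, lay lower without overlap (-0.38 ± 0.15). Cxcl1, a neutrophil attractant, differed by 0.84 ± 0.50 and Ccl3 by -0.29 ± 0.25. The macrophage list mean was 0.99 in replicate 4 against at most 0.26 in the other treated animals.

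Of the hepatocyte markers, 0 of 15 had an unadjusted p under 0.05, and their differences ran from -0.12 ± 0.27 for Cyp2e1 to 0.22 ± 0.32 for Fgb, a fibrinogen chain. Marker by marker, the pancreatic signal was carried by replicates 1 and 5. Of 29 probed acinar markers, 27 and 28 were well above background on these arrays against 8 to 12 on the other 8. Prss2, Cpa1, Cpb1, Pnlip and Reg1, which encode digestive enzymes and a secreted acinar protein, were well above background on these 2 arrays alone among the 10. Clps, the colipase, differed by 2.42 ± 1.29 between groups, Cela1 by 1.86 ± 0.81, Cel by 1.99 ± 1.02, Ctrl by 1.49 ± 0.79, Ctrb1 by 0.83 ± 0.64, Spink1 by 1.55 ± 0.65 and Sycn by 2.36 ± 1.51. Amy2a5 differed by 0.024 ± 0.36 and Erp27 by 0.31 ± 0.19; of these 9, Cela1 and Spink1 had an unadjusted p under 0.05. Cela1 stood at 0.28, 0.30, -0.33, -0.34 and 0.086 on the control arrays, and 5.08, 1.01, 0.95, -0.22 and 2.50 on the arrays of treated animals. Ins2, the only islet marker measured, stood at 1.01 in replicate 4 and 1.38 in replicate 5, so its order was not that of the acinar genes. Replicates 1 and 5 also had the most adipose markers well above background, 7 of 10 on each against 3 to 6 on the other 8 arrays. Plin1, a lipid droplet protein, and Retn, an adipocyte hormone, were well above background on these 2 arrays alone, and Adipoq, adiponectin, on these and 1 control array.

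Neutrophil markers had their highest levels in replicate 4 and were most often detected in replicate 5. S100a8, a calcium-binding protein of neutrophils, stood at -0.034, -0.14, 0.33, 0.35 and -0.51 on the control arrays, and 0.016, -1.05, 0.70, 6.05 and 2.37 on the arrays of treated animals (1.62 ± 0.84). Camp, an antimicrobial peptide of their granules, was 4.06 in replicate 4 and the granule proteases Prtn3 and Ctsg were 3.39 and 3.29. The granule genes Ngp, Ltf and Mpo were well above background in replicate 4 alone among the 10 arrays, Cxcr2 and Padi4 in replicate 5 alone, Retnlg in both, and Mmp8, Mmp9, Fcnb, Cd177, Stfa1 and Stfa2l1 on none. Of 31 probed markers, 22 were well above background in replicate 5 and 20 in replicate 4, against 12 to 18 on the other 8 arrays. Replicate 5 also had the most probes of any kind well above background, 30120, against 23637 in replicate 4. Outside the 10 arrays, replicate 3 at 8 mg/kg reached 21 markers (29450 probes) with a neutrophil mean of 0.33. Replicate 1 at 4 mg/kg reached 20 (29037 probes) with a mean of -0.14. Over all 16 measured markers the group differences ran from -0.19 (Clec4e) to 1.77 (Lcn2), 12 of them above 0. Between them lay S100a9 (0.82 ± 0.41), Chil3 (0.56 ± 0.33), Ifitm6 (0.45 ± 0.33), Ltb4r1 (0.32 ± 0.22), Il1b (0.25 ± 0.47), Elane (0.017 ± 0.13), Hp (0.12 ± 0.26), Pglyrp1 (-0.032 ± 0.45), Trem1 (-0.10 ± 0.12) and Csf3r (-0.17 ± 0.18).

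**Figure D4:**
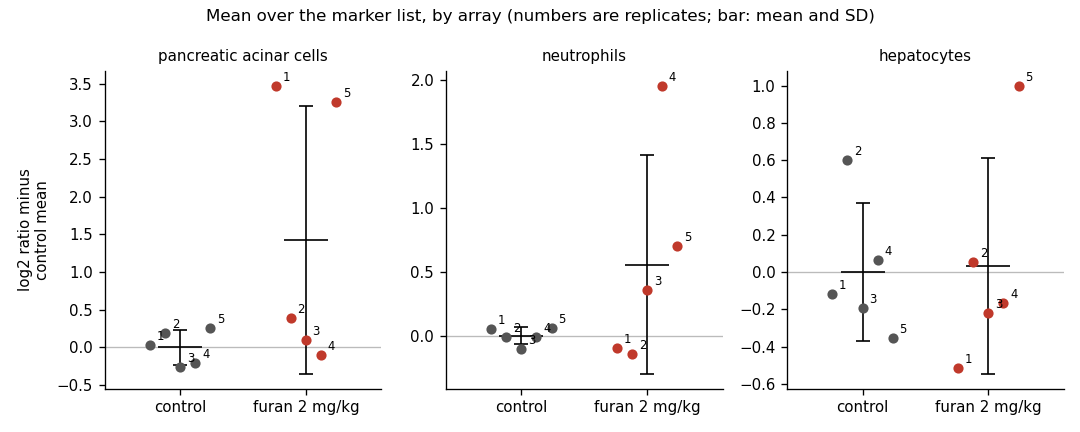
Mean level over the measured markers of pancreatic acinar cells (9 genes), neutrophils (16) and hepatocytes (15) by array, as log2 ratio minus the control mean; points are arrays numbered by replicate, and bars are the mean and SD over 5 animals. Replicates 1 and 5 at 2 mg/kg lie at 3.48 and 3.26 in the first panel, replicate 4 at 1.96 in the second, and control replicate 2 and treated replicate 5 are the highest in the third.

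The other doses were compared with the same 5 controls, so their differences are given side by side and the direct contrasts between doses are the tests. Between 2 and 1 mg/kg, and between 4 and 2 mg/kg, 0 genes passed the adjusted threshold, and 1467 and 953 had an unadjusted p under 0.05 (7.37% and 4.79%). Between 8 and 2 mg/kg, 297 genes (1.49%) passed, 182 higher (0.915%) and 115 lower (0.578%) at 8 mg/kg. That count was 67 without the 4 arrays that carried pancreatic transcripts, which included replicate 5 at 8 mg/kg. It was 152 without treated replicate 1, 186 without treated replicate 3 and 634 with slide as a fixed block.

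The p53 list held 14 of these 297 genes, all higher at 8 mg/kg. Cdkn1a stood 2.21 ± 0.16 higher at 8 than at 2 mg/kg (adjusted p = 1.61e-07), Phlda3 1.08 ± 0.11 higher and Aen 0.84 ± 0.086 higher (adjusted p = 1.89e-05). The difference from control of Aen was 0.14, 0.71 and 1.33 at 1, 4 and 8 mg/kg, and that of Cdkn1a was 0.22, 1.29 and 2.79 at 1, 4 and 8 mg/kg. Fam13b differed from control by 0.16, 0.40 and 0.99 at 1, 4 and 8 mg/kg, and its contrast of 8 with 2 mg/kg missed the threshold (0.38 ± 0.098, adjusted p = 0.0556). NRF2 and glutathione genes gave 13 of 42 higher at 8 than at 2 mg/kg, among them Gsta1 (4.60 ± 0.59, adjusted p = 0.000224), Gclc (0.86 ± 0.15) and Nqo1 (0.79 ± 0.16). Also higher at 8 mg/kg were Jun (1.98 ± 0.18), Atf3 (1.71 ± 0.19), Afp (2.19 ± 0.28), Cxcl10 (1.20 ± 0.15) and Hspb1 (0.89 ± 0.15).

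Cholesterol synthesis genes gave 0 of 26 past the threshold between 8 and 2 mg/kg. At an unadjusted p under 0.05, 3 were lower and 0 higher at 8 mg/kg. Of all 19899 genes, 2447 had such a p in this contrast in either direction. Counted in either direction, 3 of 26 was no larger a share. The share of all genes that were lower is not given here, so the 3 lower members cannot be set against it. Hmgcs1 differed from control by 0.22, 0.55 and 0.54 at 1, 4 and 8 mg/kg, against 0.81 at 2 mg/kg. The median of the list was 0.10, 0.26, 0.12 and 0.18 at 1, 2, 4 and 8 mg/kg, while that of the p53 list was 0.049, 0.26, 0.31 and 0.84.

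Some genes were higher at 2 than at 8 mg/kg. Ctsc was -0.76 ± 0.13 at 8 minus 2 mg/kg (adjusted p = 0.00355), and its differences from control were 0.038, 0.055 and -0.21 at 1, 4 and 8 mg/kg, against 0.55 at 2 mg/kg. Mt1 and Mt2 gave -1.96 ± 0.42 and -2.13 ± 0.53 (adjusted p = 0.0183 and 0.0451), and the acute phase gene Lbp, which binds bacterial lipopolysaccharide, -0.59 ± 0.13 (adjusted p = 0.0264). For Mt1 and Mt2, replicates 4 and 5 were the highest animals at 2 mg/kg. Without 1 animal at a time the adjusted p ran from 0.0154 to 0.1 for Mt2, and Lbp missed the threshold without treated replicate 5 (0.0609). Without the arrays with transcripts of other cells the contrasts were -1.22, -1.01 and -0.37, with adjusted p-values of 0.37, 0.628 and 0.313. For Ctsc the contrast without those arrays was -0.63 (adjusted p = 0.14).

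**Figure D5:**
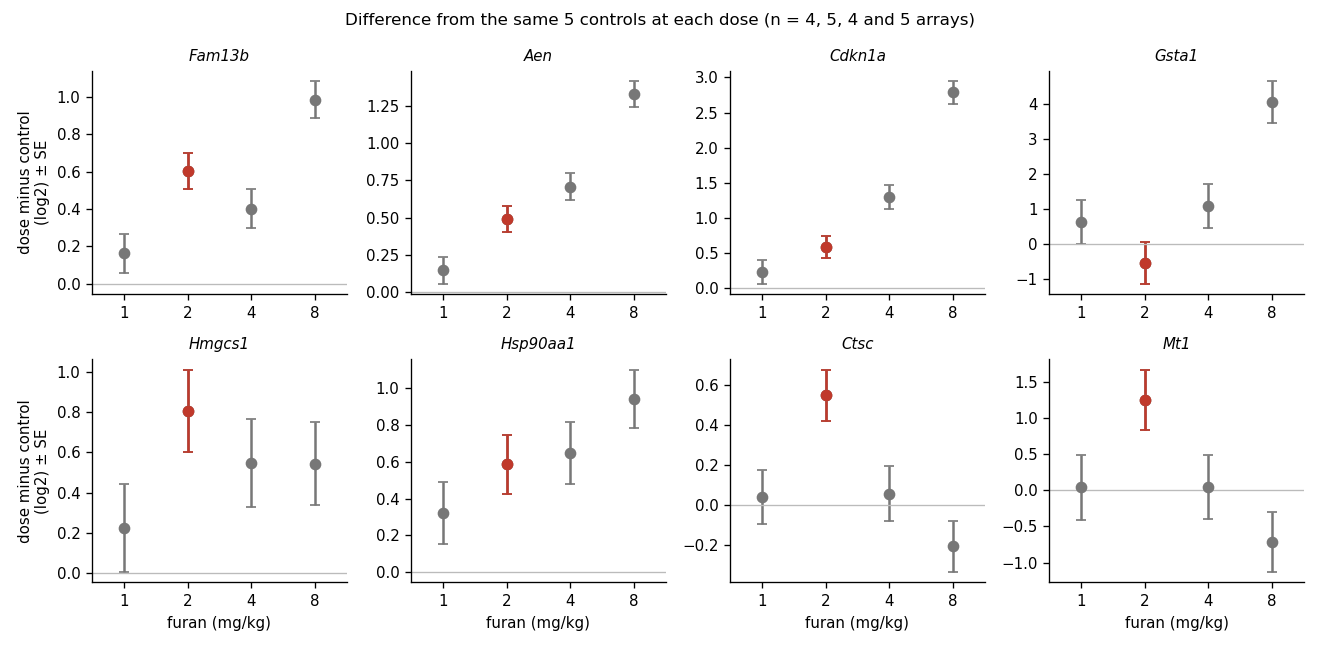
Difference from the same 5 controls ± SE (vertical axis, log2) at 1, 2, 4 and 8 mg/kg furan for 8 genes, with 4, 5, 4 and 5 arrays and 2 mg/kg in red. Aen is at 0.14, 0.49, 0.71 and 1.33, while Ctsc and Mt1 are highest at 2 mg/kg.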

How the data were processed

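Liver RNA (Cy5) was hybridised with a mouse reference RNA (Cy3) on Agilent 8x60K arrays without dye swap, per the labels. The file headers name Feature Extraction 10.7.3.1, and the processed signals as deposited are linear intensities from which that software had removed background and dye bias. A further table deposited by the authors gives a Cy5 to Cy3 ratio per probe and served as an alternative. The deposited marks of 0 or 1 for outliers, saturation and signal well above background were used as filters.

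Values were log2 of processed Cy5 over Cy3 after loess within each array (span 0.3, 4 iterations). A probe was tested where at least 4 arrays of a group had Cy5 well above background (25576 of 55681 probes). Accessions matched 20018 symbols in a gene table of GRCm38.p6, used for names only; a gene is its brightest probe. The comparison used lmFit and eBayes of limma 3.58.1 (R 4.3.3) on all 23 arrays (group only, two-sided, Benjamini-Hochberg over 19899 genes, 18 residual degrees of freedom). The code was tested on simulated data. The number of arrays limits the precision.

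The members, gene lists and tests were chosen with earlier results of these data known. Genes were named by a rule: symbols past the threshold, the smallest p-values up to 12 genes in each direction, 30 genes whatever their values, all measured acinar and neutrophil markers, and the highest and lowest member of each other list. Other list members and the transcripts without a symbol were named after their values were seen. Some genes are not reported here. Replicate numbers do not pair the samples: same-numbered animals correlated at -0.229 to 0.242. Alternatives are given in the closing section.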

Additional observations from a re-analysis of the deposited data

Results flagged for a closer look

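Within each group of 5 animals, the gap of the highest or lowest animal to its nearest neighbour was set against the whole range of the group. Of 412 such groups, 31 held an animal apart from the other 4 by this measure, and chance alone gives about 1 in 20. The values are levels relative to the control mean, with the range of the other 4 animals of the same group.

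In control replicate 2, which shared slide 3 with treated replicate 5 and had high hepatocyte transcripts, 8 values stood apart: Cyp2e1 at 0.78 (others -0.29 to -0.094), Glul at 0.38 (others -0.17 to -0.020), Hp at 0.70 (others -0.32 to -0.060), Slco1a1 at 2.02 (others -0.86 to -0.078), the mean of the furan oxidation and conjugate processing list at 0.26 (others -0.13 to -0.027), the mean of the pericentral list at 0.61 (others -0.24 to -0.066), the mean of the bile acid list at 0.56 (others -0.21 to -0.076) and the mean of the gluconeogenesis and fasting list at 0.35 (others -0.14 to -0.032). Treated replicate 5 had 7: Cyp2e1 at 0.76 (others -0.56 to -0.21), Creld2 at 2.14 (others -0.028 to 0.51), Acat2 at 0.28 (others -0.19 to -0.073), Cyp4a12a at 0.82 (others -2.37 to -1.93), Hbb-b2 at 0.98 (others -0.51 to -0.20), Stard4 at 1.16 (others 0.22 to 0.29) and the mean of the CAR, PXR and AhR targets list at 0.83 (others -0.25 to 0.050).

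Treated replicate 4, the animal with neutrophil transcripts, had 4: Hmox1 at 1.08 (others -0.26 to 0.092), Ly6d at 2.74 (others 0.22 to 0.82), Golm1 at 1.19 (others -0.039 to 0.29) and the mean of the oncofetal and tumour list at 0.77 (others 0.033 to 0.14). Replicate 1 had Chordc1 at 0.16 (others 0.42 to 0.48) and the mean of the NRF2 and glutathione list at -0.19 (others -0.040 to -0.0062). Replicate 2 had XM_001472683 at -2.18 (others -4.16 to -3.88), and replicate 3 had Il2rb at 1.56 (others -0.25 to 0.10).

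Among the other controls, replicate 1 had Cryab at 0.96 (others -0.40 to -0.10). Control replicate 3 had XM_001472683 at -1.53 (others 0.22 to 0.64) and the mean of the NRF2 and glutathione list at -0.13 (others 0.021 to 0.036). Control replicate 4 had Ephx1 at 0.22 (others -0.094 to -0.013), Il1b at 1.47 (others -0.62 to -0.12) and Rgs5 at -2.94 (others 0.32 to 1.505). Control replicate 5 had Sycn at 0.81 (others -0.25 to -0.12) and Lpin1 at 1.08 (others -0.54 to -0.098). Sycn, an acinar granule gene, stood at 6.43 and 6.00 in the treated animals with acinar transcripts. XM_001472683 was not well above background on any treated array, so its values there have no order.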

How the results depend on the processing

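The results were recomputed under 27 alternatives, 10 of which left out 1 animal; the counts between doses and some dim genes had a value under 26 of them. At 2 mg/kg 0 genes passed with median signals, normexp, the deposited ratios, no filter on dim probes, no loess, array weights, the 10 arrays alone, slide as a fixed block, the replicate block, and without the arrays with acinar transcripts, those and the neutrophil array, or slide 3 (unadjusted p under 0.05 for 920 to 2264 genes), 7 passed with slide as a random block, and 0 to 3 with 1 animal left out. Replicate numbers do not pair the samples (1 of 5 pairs correlated above 0.1, and 1 array was closest to its own number), and the replicate block gave 0, 246 and 2 calls at 2 mg/kg, for 8 against 2 and for 4 against 2 mg/kg. For 8 against 2 mg/kg the count of 297 became 156 with median signals, 151 with normexp, 147 with the deposited ratios, 146 without a filter, 755 with array weights, 634 and 687 with slide as a fixed and as a random block, 67 without acinar arrays, 76 without those and the neutrophil array, and 152 to 389 with 1 animal left out (152 without treated replicate 1). For 4 against 2 mg/kg it became 1 without loess, 1 and 2 with slide as a fixed and a random block, and 0 to 2 with 1 animal left out; for 2 against 1 mg/kg it was 0 in every alternative run. The p53 median moved to 0.17, 0.17, 0.16 and 0.15 with median signals, normexp, the deposited ratios and no filter. The cell death median moved to -0.032 with the mean of probes and -0.025 with array weights, and the clock median to -0.13 without slide 3. With 1 animal left out the clock, interferon and gut medians ranged over -0.14 to 0.11, 0.070 to 0.19 and -0.24 to 0.11; the other 31 of 36 medians moved by less than 1 SD of the animals, which is wide for some: over all alternatives the medians ran over 0.14 to 1.95 (acinar), 0.074 to 0.68 (neutrophil), 0.065 to 0.23 (unfolded protein), -0.048 to 0.34 (acute phase), -0.10 to 0.35 (macrophage) and -0.054 to 0.26 (oncofetal). Of the 36 medians, 10 kept their sign throughout, those of the p53, cholesterol and heat shock lists among them. Of 170 named genes, 134 kept their direction in every alternative, Fam13b and Aen among them. The differences that changed sign were, with median signals Ephx1 0.022, Cyp7a1 -0.11, Elane -0.0056, Pglyrp1 0.19, Marco 0.031, Krt7 -0.10; with normexp Ephx1 0.044, Cyp2e1 0.023, Atf3 -0.017, Cyp7a1 -0.016, Pglyrp1 0.18, Marco 0.15, Krt7 -0.13; with the deposited ratios Ephx1 0.036, Atf3 -0.013, Cyp7a1 -0.11, Elane -0.020, Pglyrp1 0.19, Marco 0.0056, Krt7 -0.094; without loess Ephx1 0.017, Pglyrp1 0.13; with array weights Ephx1 0.079, Hspb1 -0.012, Elane -0.029, Il1b -0.11, Hp -0.029; with slide as a fixed block Ephx1 0.015, Amy2a5 -0.015, Pglyrp1 0.16; with slide as a random block Ephx1 0.0067, Pglyrp1 0.073; without the arrays with acinar transcripts Ephx1 0.055, Hspb1 -0.057, Ctrb1 -0.18, Amy2a5 -0.011, Sycn -0.21, Pglyrp1 0.30, Ggt5 -0.086, Marco 0.27; without those and the neutrophil array Ephx1 0.21, Hspb1 -0.17, Jun -0.072, Sycn -0.40, Erp27 -0.015, S100a8 -0.17, Elane -0.018, Il1b -0.27, Hp -0.022, Ggt5 -0.44, Cxcl1 -0.24, Acot1 0.12, Elovl3 0.088, Fgb -0.065, Cd2 0.39, Reln 0.0016, Krt7 -0.25, Lgals4 0.0046, Lbp -0.088; without slide 3 Ephx1 0.032, Elane -0.0046; with arrays scaled to equal spread Ephx1 0.035, Cyp2e1 0.014, Acat2 0.022, Hbb-b2 0.045. With 1 animal left out, ranges that crossed 0 were Acat2 -0.13 to 0.042, Amy2a5 -0.23 to 0.30, Ccnd1 -0.0052 to 0.49, Cryab -0.27 to 0.075, Cyp2e1 -0.34 to 0.072, Elane -0.098 to 0.10, Ephx1 -0.084 to 0.059, Fgb -0.13 to 0.42, Ggt5 -0.11 to 0.54, H19 -0.72 to 0.011, Hamp -0.48 to 0.056, Hbb-b2 -0.30 to 0.071, Hmox1 -0.069 to 0.27, Hp -0.11 to 0.29, Hspb1 -0.059 to 0.11, Il1b -0.28 to 0.62, Il2rb -0.047 to 0.41, Krt7 -0.026 to 0.30, Lbp -0.0028 to 0.22, Pglyrp1 -0.30 to 0.34, Slco1a1 -0.70 to 0.099, Tff3 -0.12 to 0.44. Where a value changed, the cause was not tested. Omitting the neutrophil array is the same as leaving out treated replicate 4. The number of arrays and signal over background limit what small differences and dim genes, such as Sybu, can show.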

Other observations

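Lists of liver zonation and metabolism held few members past an unadjusted p of 0.05, which 4.39% of all genes passed as higher and 4.29% as lower. Pericentral hepatocyte genes gave 1 of 21, Lgr5, the Wnt-dependent receptor of hepatocytes around the central vein, at -0.64, 1.01, -0.60, -0.19 and 0.42 on the control arrays, and 1.17, 1.07, 1.81, 0.47 and 0.35 on the arrays of treated animals (0.97 ± 0.35). Glul, glutamine synthetase of the same zone, differed by 0.20 ± 0.13. Periportal genes gave 1 higher, Ctsc, and 1 lower, Igfbp2 (-0.46 ± 0.18), of 22. In gluconeogenesis and fasting, lactate dehydrogenase Ldha differed by 0.50 ± 0.14 and the lipin Lpin1 by -0.67 ± 0.22; for Ldha, 2 other probes gave 0.21 ± 0.17 and 0.26 ± 0.18. The targets of CAR, PXR and AhR, PPARA targets and bile acid genes each had 0 members in either direction, with Sult1e1 at 1.57 ± 0.91 (well above background on 1 control and 3 treated arrays), Cyp2c55 at -0.39 ± 0.26, Acot1 at -0.81 ± 0.45, Cyp7a1, the rate-limiting enzyme of bile acid synthesis, at 0.29 ± 0.44, Akr1d1 at 0.78 ± 0.45 and Slco1a1 at -0.41 ± 0.54. Fatty acid synthesis gave 1 of 20, the lower gene Me1 that the NRF2 list also holds, and Fasn, the fatty acid synthase, differed by -0.28 ± 0.31, Pnpla3 by 0.49 ± 0.45 and Elovl3 by -0.56 ± 0.44.

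Clock and sex-biased genes varied between animals. Clock differed by 0.38 ± 0.16, Arntl by 0.64 ± 0.58 and Per1 by -0.53 ± 0.43. Cyp4a12a, a male-biased fatty acid hydroxylase, stood at -0.87, 1.18, 0.24, -1.10 and 0.55 on the control arrays, and -2.18, -1.93, -2.08, -2.37 and 0.82 on the arrays of treated animals (-1.55 ± 0.63). Treated replicates 1 to 4 lay below all controls and replicate 5 among them. Sult3a1, a female-biased sulfotransferase, differed by 0.68 ± 0.47.

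Other liver cell types gave no marker past the adjusted threshold. Sinusoidal endothelial markers included 2 of 14 lower at an unadjusted p under 0.05 (14.3%, against 4.29% of all genes), Eng (-0.36 ± 0.14) and Clec14a (-0.31 ± 0.15), and Fcgr2b differed by 0.13 ± 0.13. The Kupffer cell markers Timd4 and Marco differed by 0.64 ± 0.39 and -0.24 ± 0.39, the stellate cell markers Rgs5 and Reln by 0.79 ± 0.62 and -0.40 ± 0.32, and the cholangiocyte marker Krt7 by 0.15 ± 0.30. Lymphocyte markers Il2rb, Cd2, Ms4a1 and Jchain, erythrocyte markers Slc4a1 and Hbb-b2, the adipose marker Lpl, and gut markers Tff3 and Lgals4 had differences between -0.35 and 0.58. Cidec, a lipid droplet protein of adipose tissue, differed by 0.90 ± 0.44 by a probe well above background on 2 control and 4 treated arrays, and by 0.29 ± 0.36 by another that was so on all 10.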
